A study of Rattus norvegicus with 6 samples.

Results

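The region examined here is the Gucy2c window, on chromosome 4 from 173782222 to 173782340 of the rat build rn4, with 20 kb on either side. The study showed this window as a strong gain of methylation with iron deficiency. The window was therefore chosen by the difference in methylation between the diets in these same libraries, and its values are given as a description with no test. The locus spans 40119 nt from 173762222 to 173802340 and holds 586 of the 22152541 CpGs listed in any of the 6 files. Of these, 9 lie in the window, 282 to its left and 295 to its right, where left means lower coordinates. All 6 files list 340 of the 586 CpGs (58%, compared with 54.3% over the genome), and 161 CpGs (27.5%, compared with 21.2%) reach a coverage of 10 in every library. Coverage is the count of reads at a CpG. Where reads are summed over CpGs, a read counts once at each CpG that it covers, so a sum can exceed the number of different reads.

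Gucy2c encodes guanylyl cyclase C, a receptor in the cell membrane that is best known from the lining of the intestine. It binds the peptides guanylin and uroguanylin, which are encoded by Guca2a and Guca2b, and then makes cyclic GMP, a messenger that controls salt and water transport. Outside the intestine the receptor is known from dopamine neurons of the midbrain. Methylation of cytosine in CpG is high over most of a mammalian genome and low at many CpG-rich regulatory stretches. No RNA data were used here, so nothing here bears on the expression of Gucy2c. No annotation of rn4 was used here, so the exon or intron in which the window lies and the other genes of the guanylin pathway were not analysed.

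Whole-genome bisulfite sequencing (WGBS) was performed on hippocampi of Sprague-Dawley rat pups from Charles River at postnatal day 15, with 3 iron-deficient and 3 iron-sufficient libraries. Bisulfite turns unmethylated cytosines into bases that are read as thymine, and methylated cytosines stay cytosines. A count as unmethylated thus rests on a thymine read at the position, and the animals' own sequence there was not examined. For the iron-deficient group the dams received a diet with 4 ppm iron from gestational day 2, and one with 200 ppm from postnatal day 7. For the iron-sufficient group the diet held 200 ppm throughout, so at dissection both groups were on the same diet. The paper states, citing earlier work, that the hippocampus of the first group was still iron-deficient at postnatal day 15. The labels do not give litter, sex or sequencing run, so the p-values measure the spread between these libraries only. According to the paper, sequencing was either paired-end or single-read, and it does not say which sample had which. Coverage summed over all CpGs lay between 432692526 and 780127386 per library. Coverage was made comparable by dividing it by the library's median over the CpGs listed in all files, which was 26, 25 and 32 in iron-sufficient replicates 1, 2 and 3 and 33, 38 and 21 in the iron-deficient ones. A relative coverage of 1 is thus a library's median over the CpGs listed in all files, not over all CpGs of that library. Over the 586 CpGs of the locus, the mean relative coverage was 0.966 ± 0.0361 (SD, n = 3) in iron-sufficient and 1.19 ± 0.0562 (SD, n = 3) in iron-deficient libraries, with a CpG missing from a file counted as 0. These means include the window and the coverage gap around it, which is defined below. Without the gap and window, the means were 0.931 and 1.05 to the left and 1.06 and 1.2 to the right. The groups then overlapped on both sides.

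The 9 CpGs of the window were almost free of methylated reads in the iron-sufficient group and mostly methylated in the iron-deficient group. Iron-sufficient replicate 1 had 4 methylated reads of 183 (2.19%, exact binomial 95% interval 0.599 to 5.5), replicate 2 had 3 of 104 (2.88%, interval 0.599 to 8.2) and replicate 3 had 0 of 141 (exact interval up to 2.58%). By a limit of 3 reads of the total, the count of 0 allows up to 2.13%. Iron-deficient replicate 1 had 736 of 783 (94%, interval 92.1 to 95.6), replicate 2 had 999 of 1126 (88.7%, interval 86.7 to 90.5) and replicate 3 had 478 of 587 (81.4%, interval 78 to 84.5). These intervals and this limit treat all counts as independent. A read is counted at each CpG that it covers, and reads of a bisulfite library are not independent molecules. They are therefore narrower than the data allow, also for counting error. The group means of 1.69% ± 1.5 and 88% ± 6.31 (SD, n = 3 each) lay 86.4 percentage points apart, and the groups did not overlap in the window.

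All 7 methylated reads of the iron-sufficient libraries fell on a single CpG, at 173782334. There replicate 1 had 4 of 20 reads methylated, replicate 2 had 3 of 11 and replicate 3 had 0 of 10, while the iron-deficient replicates had 97.4%, 91.3% and 86.8%. The next CpGs of the window lie 2, 4 and 6 nt further on, at 173782336, 173782338 and 173782340, and had no methylated read in any iron-sufficient library. At the other 8 CpGs together, iron-sufficient libraries had 0 of 387 reads methylated and iron-deficient libraries had 1968 of 2229 (88.3%).

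Within the window the iron-deficient libraries differed among themselves more than the iron-sufficient ones did at most CpGs. Iron-deficient replicate 3 ranged from 63.2% at the first CpG, 173782222, to 88.1% at the last. Iron-deficient replicate 1 was above 93% at 8 of the CpGs and at 72.6% at 173782306, where replicate 2 had 91.5% and replicate 3 had 76.1%. The spread between the 3 iron-deficient libraries at a CpG lay between 9.77 and 30.5 percentage points. No CpG of the window had overlapping groups.

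The groups also stood apart in how many reads they had in the window. Averaged over the 9 CpGs, iron-sufficient replicates 1, 2 and 3 had 20.3, 11.6 and 15.7 reads per CpG, and the iron-deficient replicates had 87, 125 and 65.2. As relative coverage these are 0.782, 0.462 and 0.49 compared with 2.64, 3.29 and 3.11, a ratio of the means of 5.21. Iron-sufficient libraries thus lay below their own median over the CpGs listed in all files and iron-deficient libraries above theirs. Split by state, iron-sufficient replicates had 19.9, 11.2 and 15.7 unmethylated reads per CpG and iron-deficient replicates 5.22, 14.1 and 12.1, so the groups overlapped in unmethylated reads. Methylated reads per CpG were 0.444, 0.333 and 0 compared with 81.8, 111 and 53.1. The part of the coverage difference in the methylation difference was not tested. Because each library is a mix of hippocampal cells, a different share of a cell type and a different methylation within cells cannot be told apart. This concerns the methylation difference only. Other sources of that difference, and the source of the coverage difference, were not tested.

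**Figure D1:**
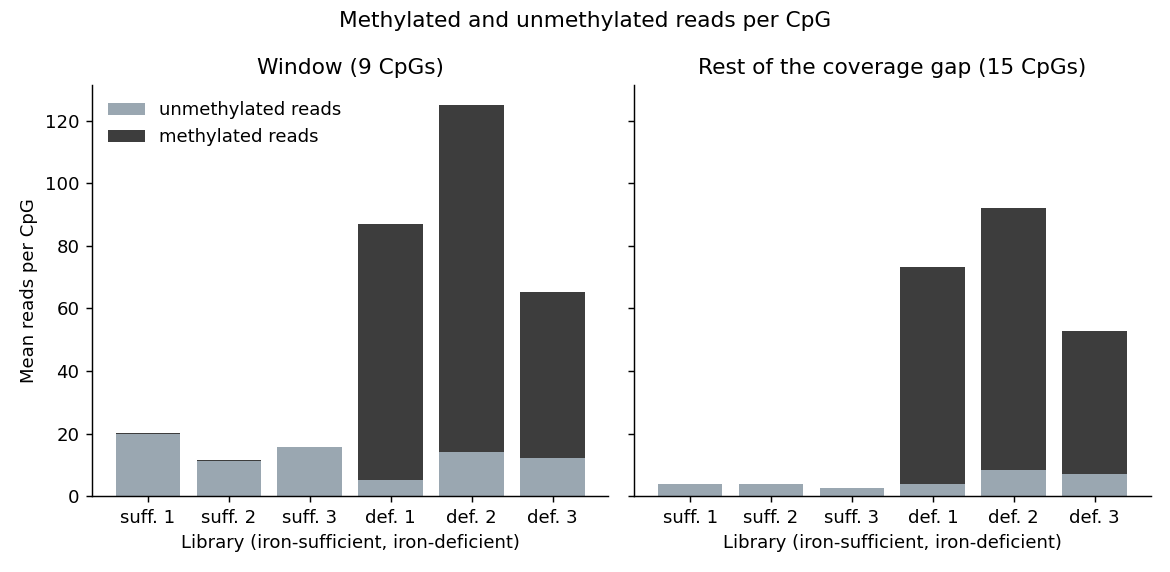
Mean reads per CpG in each library, unmethylated reads in grey and methylated reads in black stacked on top, over the 9 CpGs of the window (left) and the other 15 CpGs of the coverage gap (right). The grey parts of the 3 iron-sufficient and 3 iron-deficient bars overlap in height in the window, whereas black is almost missing from the iron-sufficient bars.

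The coverage gap was followed outward from the window as the unbroken run of listed CpGs at which every iron-deficient library exceeded every iron-sufficient library in relative coverage and the ratio of the group means was at least 2. Of all CpGs in the genome, 4.46% met this rule singly. The run reached from 173782144 to 173782670, which is 527 nt or 4.43 times the length of the window. Without iron-sufficient replicate 1 the run was 856 nt long. It took in 24 CpGs, 3 to the left of the window, the 9 in it and 12 to its right, and ended 78 nt and 330 nt beyond the window's bounds. The stretch was richer in CpGs than its surroundings, with 4.55 listed CpGs per 100 nt compared with 1.42 in the rest of the locus, and 8 of its neighbouring pairs lay 2 nt apart. The next CpG to the left was 329 nt away and the next to the right 36 nt, so the left end is known less closely than the right end.

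Over the whole gap, iron-sufficient replicates had a relative coverage of 0.386, 0.268 and 0.233 and iron-deficient replicates one of 2.38, 2.75 and 2.74, a ratio of 8.86. The iron-sufficient libraries had 241, 161 and 179 reads on the 24 CpGs and the iron-deficient libraries 1883, 2507 and 1380. Unmethylated reads per CpG averaged 7.97 ± 1.7 and 7.96 ± 3.2 (SD, n = 3 each), a difference smaller than the spread between libraries. This mean joins parts that differ in direction, with means of 15.6 and 10.5 in the window and of 3.4 ± 0.751 and 6.44 ± 2.33 (SD, n = 3 each) in the 15 CpGs outside it, and the groups overlapped or touched in both. Methylated reads per CpG averaged 0.0972 ± 0.0867 and 72.2 ± 22.7 (SD, n = 3 each). The CpGs of the gap were chosen by their difference in coverage, so the ratio and the separation in total reads are given by the rule, and with like numbers of unmethylated reads so is most of that in methylated reads.

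The gap was not the same along its length. At its left end, no iron-sufficient library had a read at 173782144 and 173782146, while the iron-deficient replicates had 30, 59 and 63 reads at the first of these and 45, 59 and 64 at the second. At 173782194, 28 nt before the window, iron-sufficient coverage was 9, 9 and 7 reads. In the window it was between 10 and 26 reads at every CpG and library. From 173782390 to 173782468, 6 CpGs had almost no iron-sufficient reads. Coverage summed over these 6 CpGs was 0, 12 and 6 in iron-sufficient replicates 1, 2 and 3 and 561, 857 and 322 in the iron-deficient ones. Iron-sufficient replicate 2 had 2 reads at each of the 6 CpGs, and replicate 3 had at most 2. The stretch is 79 nt long, so 1 read of 100 nt can span it. Over the outermost 5 CpGs, from 173782514 to 173782670, the sums were 34, 31 and 16 compared with 274, 215 and 219. These stretches were set apart after their values were seen.

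**Figure D2:**
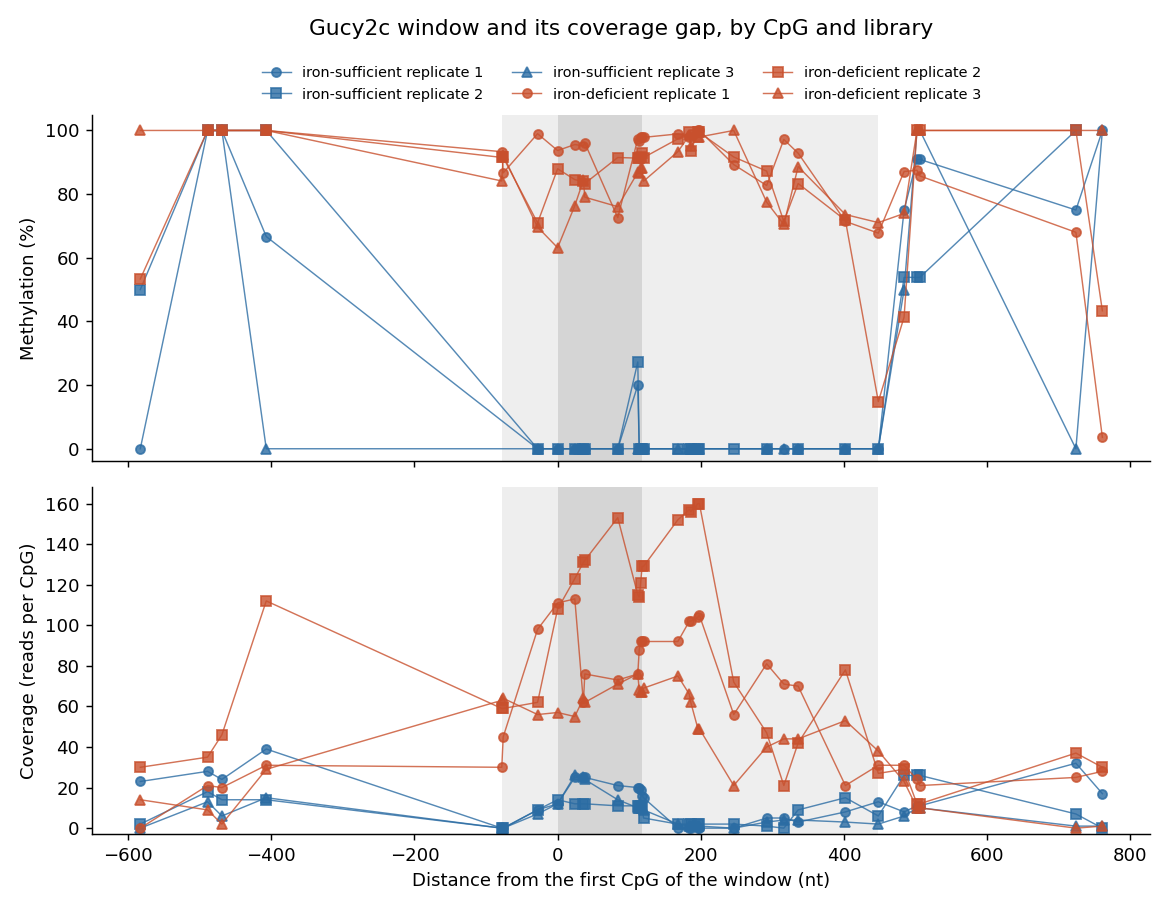
Methylation in percent (top) and coverage in reads per CpG (bottom) at each listed CpG, against the distance in nt from the first CpG of the window, with a line for each library. Dark shading marks the window and light shading the coverage gap. Where blue iron-sufficient libraries have reads in the gap they lie at 0%, except at the single CpG with 20% and 27.3%, and 2 CpGs of the gap have no iron-sufficient read. In the lower panel their coverage is higher within the window and falls again on both sides of it.

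Iron-deficient methylation also varied along the gap. Over the 6 CpGs with the fewest iron-sufficient reads, iron-deficient replicates had 98.2%, 97.3% and 96.6%, compared with 94%, 88.7% and 81.4% in the window. Over the outermost 5 CpGs they had 86.5%, 70.2% and 76.3%. At the last CpG, 173782670, iron-deficient replicate 2 was at 14.8% on 27 reads, while replicates 1 and 3 were at 67.7% and 71.1%. Outside the window no iron-sufficient read in the gap was methylated, with 0 of 58, 0 of 57 and 0 of 38 reads. These counts allow up to 5.17%, 5.26% and 7.89% by the limit of 3 reads of the total, and the exact binomial 95% intervals reach 6.16%, 6.27% and 9.25%. As in the window, both treat repeated counts of 1 read as independent, so the true limits are higher. The iron-deficient libraries had 94.7%, 90.9% and 86.6% on the same 15 CpGs.

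At both bounds of the window, coverage passed the minimum of 10 reads while the contrast in methylation went on. The study's criteria for a single CpG are this minimum in every sample, a difference of 10 percentage points or more between the coverage-weighted group means, and a p of at most 0.05 in its weighted test. Just inside the window, 173782222 had 12, 14 and 12 iron-sufficient reads and 173782340 had 16, 10 and 10. Just outside, 173782342 had 15, 5 and 9 reads with 0% in each, and 97.8%, 91.5% and 84.1% in the iron-deficient replicates. At 173782194, the iron-sufficient replicates were also at 0%, and the iron-deficient ones at 99%, 71% and 69.6%. With a minimum coverage of 5, the stretch of CpGs that met the criteria was 149 nt long and held 11 CpGs. With a minimum of 1 it was 431 nt long and held 14, but it is not unbroken. CpGs under the minimum were passed over, and at a minimum of 1 these included all 6 CpGs from 173782390 to 173782468, which have no read in iron-sufficient replicate 1. These minimums were tried after the values were seen.

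At the nearest CpGs beyond the gap the groups were no longer fully apart. To the right, 36 nt past the last CpG of the gap, iron-sufficient replicates had 75%, 53.8% and 50% methylation at 173782706 and iron-deficient replicates 87.1%, 41.4% and 73.9%, with 8, 26 and 6 compared with 31, 29 and 23 reads. To the left, the nearest CpG was 173781815, with 66.7%, 100% and 0% compared with 100% in every iron-deficient library. In methylation the groups overlapped or touched at both CpGs. At 173781753 all 6 libraries were at 100%.

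The length of the run was set beside all runs of the same rule in the genome. Runs of at least 5 CpGs with higher iron-deficient coverage numbered 8864, and those with higher iron-sufficient coverage 8298. Runs of at least 24 CpGs numbered 6 and 7, so neither direction was free of runs of this length, and the longest had 62 and 38 CpGs. The run at Gucy2c ranked 6 by its number of CpGs among those with higher iron-deficient coverage. The runs were also described by their methylation. Among the 381 runs of at least 10 CpGs with higher iron-deficient coverage and reads in every library, 3 differed in methylation by at least 50 percentage points in favour of the iron-deficient group, Gucy2c included, and 0 differed as much the other way. The median difference over the 381 runs was 0.535 percentage points. Among the 528 such runs with higher iron-sufficient coverage, 0 and 1 differed by as much.

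**Figure D3:**
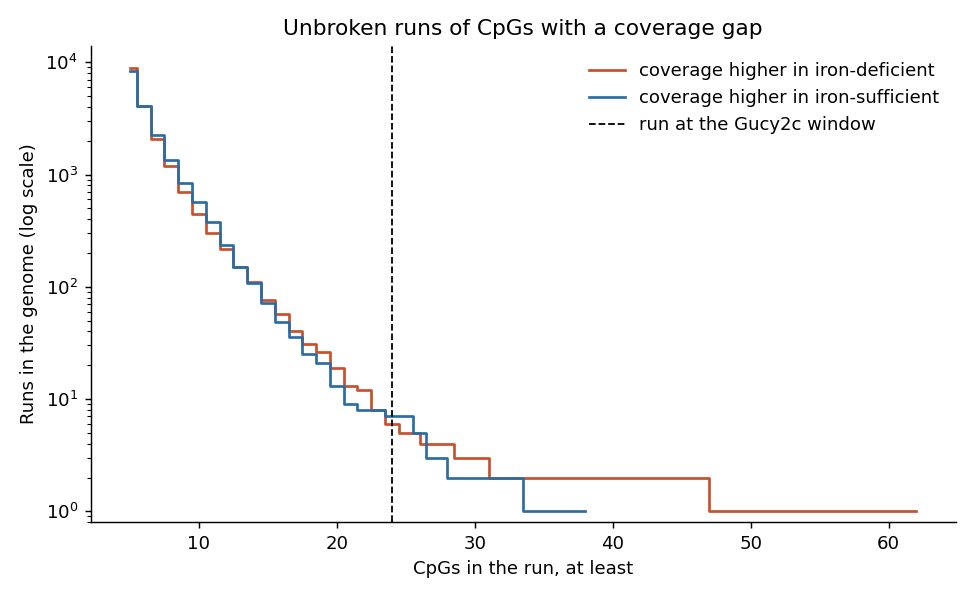
Number of unbroken runs in the genome (log scale) with at least the number of CpGs on the horizontal axis, for runs with higher coverage in iron-deficient (red) and in iron-sufficient (blue) libraries. The dashed line marks the 24 CpGs of the run at Gucy2c, which 6 runs reach in the first direction and 7 in the second.

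Elsewhere in the locus, CpGs that met the gap rule were scattered. Outside the run, 42 of 562 CpGs (7.47%, compared with 4.46% over the genome) met the gap rule with higher iron-deficient coverage and 24 (4.27%, compared with 4.13%) with higher iron-sufficient coverage. The longest other run was 7 CpGs in the first direction and 4 in the second. Over the 20 kb to the left of the window, relative coverage was higher in iron-deficient libraries by 0.21 on the log2 scale (two-sided exact permutation test, p = 0.2), and over the 20 kb to its right by 0.3 (p = 0.1 by the same exact permutation test, the smallest p that 3 against 3 allows). The right flank's groups did not overlap, as in 6.72% of the 75988 bins of 20 kb in the genome, while 3.1% had iron-sufficient libraries higher throughout. Without the CpGs of the gap, its difference was 0.19 (exact permutation test, p = 0.2) and the groups overlapped. With Benjamini-Hochberg adjustment over the 4 flank tests, 2 of coverage and 2 of methylation, each of the 4 exact permutation tests has an adjusted p of 0.2.

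Methylation of the flanks was high in both groups and differed by far less than in the window. On the left, over 61 CpGs that reached a coverage of 10 in all libraries, iron-sufficient replicates had 78.5%, 84.2% and 74.9% and iron-deficient replicates 79.2%, 85.7% and 84.5%. The difference of 3.91 percentage points was within the spread between libraries (two-sided exact permutation test, p = 0.2). With a minimum coverage of 5 the difference was 6.6 percentage points over 96 CpGs and the groups did not overlap (exact permutation test, p = 0.1, the smallest p possible), whereas with a minimum of 15 it was 1.76 over 43 CpGs (exact permutation test, p = 0.5). On the right, over 91 CpGs, it was 82%, 77.8% and 78.8% compared with 85.3%, 90.3% and 86.3%. Here every iron-deficient library lay above every iron-sufficient library, and the means were 7.75 percentage points apart (two-sided exact permutation test, p = 0.1, the smallest p possible). Of the same 20 kb bins of the genome, 6.83% had groups that did not overlap with iron-deficient libraries higher, and 3.41% with them lower. In 13.8% of the bins the iron-deficient mean was higher by at least 5 percentage points. The median difference over bins was 0.718 percentage points (quartiles -1.83 and 3.26). None of the 61 and 91 flank CpGs belonged to the gap, because every CpG of the gap outside the window was below a coverage of 10 in at least 1 library. The 96 CpGs at a minimum of 5 do include a CpG of the gap, 173782194.

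Single CpGs of the flanks were more variable than the flank means. Of the 152 flank CpGs with sufficient coverage, 9 (5.92%, compared with 3.21% of the CpGs of the genome) met the study's criteria, 7 with higher and 2 with lower methylation in iron deficiency, where the genome had 1.64% and 1.57%. The count of 9 was 18 of 237 CpGs with a minimum coverage of 5 and 4 of 49 with a minimum of 20. With unweighted means and variances it was 4 of the 152. It was 15 of 215 without iron-sufficient replicate 2 and 5 of 160 without iron-deficient replicate 1. The 18 include 173782194 and 173782342, which belong to the gap. The genome's share at these settings is not given here. The groups did not overlap at 13 CpGs with higher and 5 with lower iron-deficient methylation, compared with 2.68% and 2.43% of the genome's CpGs. The median range between the 3 libraries of a group was 27.4 percentage points in iron-sufficient and 20 in iron-deficient. Values of exactly 0% or 100% made up 55.4% of the flank values and 54.7% of those of the genome.

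The 3 largest increases among the flank CpGs that met the criteria lay over 10 kb from the window. The CpGs next to them differed less and in either direction, with weighted differences from -45.6 to 53.3 percentage points. At 173771846, which lies 10376 nt to the left, all reads counted as unmethylated in the iron-sufficient replicates, with a coverage of 26, 21 and 24. All counted as methylated in the iron-deficient replicates, with 41, 46 and 33. Over the genome, 0.000555% of CpGs that reached a coverage of 10 had this exact pattern and 0.000576% its reverse. At the CpG 16 nt before it, methylation was 85.2% and 100% in iron-sufficient replicates 1 and 3 and 56%, 100% and 100% in the iron-deficient replicates, with no read in iron-sufficient replicate 2. At the CpG 9 nt after it, iron-sufficient replicates had 40%, 100% and 4.17% and the iron-deficient replicates 100% each. At 173797191, 14851 nt to the right of the window, the iron-sufficient replicates were at 0% on 19, 75 and 47 reads and the iron-deficient ones at 100%, 100% and 47.1% on 132, 11 and 17. The CpG 40 nt before it was at 100% in 5 of the libraries and at 97.3% in iron-deficient replicate 1. At 173769648, 12574 nt to the left, the iron-sufficient replicates were at 0% on 42, 10 and 21 reads and the iron-deficient ones at 76.9%, 100% and 100% on 52, 96 and 15.

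Decreases that met the criteria were fewer and smaller. At 173769315 iron-sufficient replicates had 56.2%, 100% and 100% and iron-deficient replicates 40%, 35% and 83.3%, a weighted difference of -43.3 percentage points. At 173791653 it was 86.7%, 100% and 95.8% compared with 60.9%, 86.5% and 72.5%, a weighted difference of -24.5 percentage points. The groups overlapped at the first of these and lay close together at the second.

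By a rule that was set after its first cases had been seen, CpGs were counted that had 0% in every iron-sufficient library and 80% or more on average in iron-deficient libraries. Outside the window, 4 of the 152 CpGs of the locus (2.63%) met it, compared with 262 of the 4686636 nuclear CpGs that reached a coverage of 10 (0.00559%). They are 173765236, 173769648, 173771846 and 173797191. At 173765236 the iron-sufficient replicates had 0% on 15, 65 and 28 reads, and the iron-deficient replicates 100%, 100% and 53.5% on 54, 77 and 43. The reverse pattern was met by 0 CpGs of the locus and by 0.00373% of those of the genome. The animals' own DNA sequence at the 4 CpGs was not examined.

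With a minimum coverage of 5, the locus held 7 such CpGs outside the window and the genome 653 (0.00856%), and the reverse pattern was met by 0 and by 0.00607%. The further CpGs are 173769354, 173773749 and 173782342, the last of which belongs to the gap. At 173769354 the iron-sufficient replicates had 0% on 47, 8 and 24 reads and the iron-deficient replicates 100%, 53.3% and 100% on 31, 15 and 8. The CpG 7 nt further on, 173769361, had 0% in each iron-sufficient replicate and 100%, 86.7% and 100% in the iron-deficient ones, the last on a single read. On both sides of each of the 4 CpGs above, the adjacent listed CpG had methylated reads in at least 1 iron-sufficient library.

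**Figure D4:**
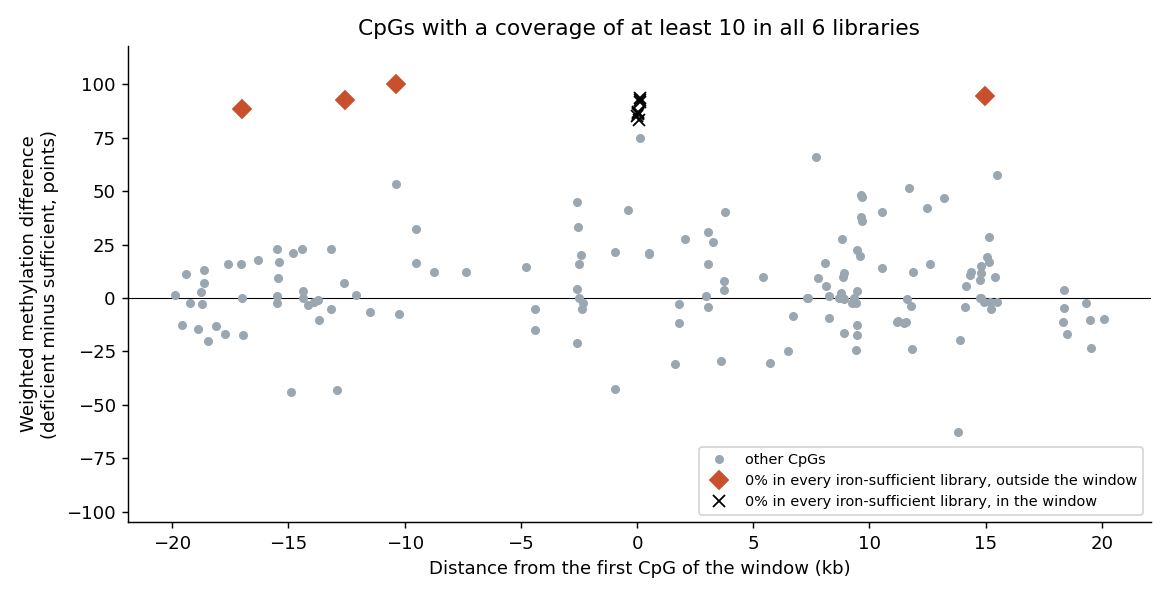
Coverage-weighted difference in methylation, iron-deficient minus iron-sufficient, in percentage points at each CpG that reached a coverage of 10 in all 6 libraries, against the distance in kb from the first CpG of the window. Black crosses are the CpGs of the window without a methylated iron-sufficient read, red diamonds the 4 flank CpGs at 0% in every iron-sufficient library and at 80% or more on average in iron-deficient libraries, and grey points all others, which lie on both sides of 0.

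As a test on regions fixed by position, reads were summed in tiles of 1000 nt over the whole genome and compared by edgeR's quasi-likelihood test. For methylation, 0 of 894906 tiles had a Benjamini-Hochberg adjusted p of at most 0.05 (0% of tiles), 26955 had an unadjusted p under 0.05, and limma called 0 tiles as well. In the tile that holds the window, iron-sufficient replicates had 11.3%, 19.8% and 11.8% and iron-deficient replicates 92.4%, 85.2% and 80.4%, which is given as a description. This tile was not called either, so a tile left uncalled may still differ. Of the other 28 tiles of the locus, 18 had a higher and 10 a lower iron-deficient mean, with a median difference of 5.01 percentage points. In 4 of the 28 (14.3%, compared with 5.93% of all tiles) the iron-deficient libraries all lay higher, and in 1 (3.57%, compared with 4.08%) they all lay lower. By the unadjusted p of edgeR, 2 of the 28 tiles (7.14%, compared with 1.91% of all tiles) were under 0.05 with higher methylation and 0 (compared with 1.1%) with lower.

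Outside the window, the tiles with the largest gain in log odds of methylation were those from 173792000 and from 173797000, both on the right. The first had 80.6%, 69.8% and 89.1% with sufficient iron and 100%, 100% and 88.7% in deficiency, which overlap. The second had 82.6%, 70.1% and 77.3% compared with 97.6%, 98.3% and 89.3%, with an unadjusted p of 0.00393 and an adjusted p of 1 by edgeR. The largest losses were in the tile from 173775000, with 91.5%, 100% and 95% compared with 87.8%, 82.7% and 84.5%, and in that from 173800000, with 88.2%, 97.2% and 92.1% compared with 73.6%, 66.9% and 91.5%. Both losses had an adjusted p of 1 by edgeR.

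For coverage, edgeR called 7 of 1718120 tiles (0.000407%), and 0 of the 36 tiles of the locus outside the window. The tile of the window was chosen with its coverage known and is given as a description. It had 320, 246 and 207 reads with sufficient iron and 2012, 2627 and 1424 in deficiency, which is a log2 difference of 2.76 after normalization. Among the 36 tiles outside it, 21 had higher and 15 lower iron-deficient coverage, and the median log2 difference was 0.05. Under an unadjusted p of 0.05 by edgeR, 1 of the 36 (2.78%, compared with 1.91%) had higher and 0 (compared with 2.04%) lower iron-deficient coverage. The tile directly to the right, from 173783000, had 46, 43 and 244 reads compared with 160, 565 and 163, and the groups overlapped. The largest coverage difference outside the window lay in the tile from 173787000, with 141, 92 and 247 compared with 340, 579 and 454 reads, a log2 difference of 1.46 with an unadjusted p of 0.00388 and an adjusted p of 1 by edgeR. The largest differences toward the iron-sufficient group were -0.68 in the tile from 173788000, with 205, 380 and 127 compared with 185, 146 and 171 reads, and -0.57 in that from 173790000, where the groups also overlapped.

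**Figure D5:**
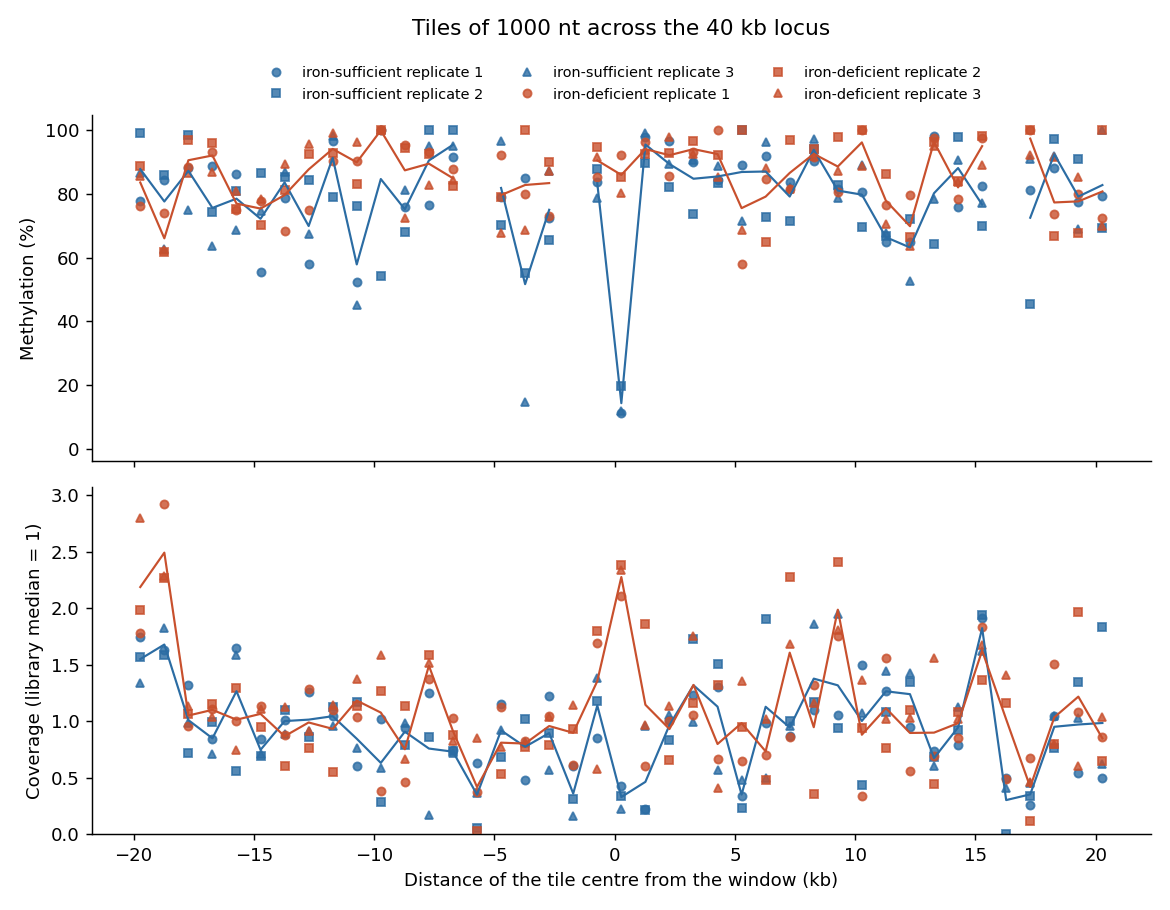
Methylation in percent (top) and relative coverage (bottom, library median = 1) in tiles of 1000 nt along the locus, against the distance of the tile centre from the window in kb. Points are libraries and lines are group means. The iron-sufficient line is lowest in the tile of the window, at 11.3% to 19.8% by library, and the coverage lines of the groups are farthest apart in the same tile.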

How the data were processed

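WGBS libraries of 6 rat hippocampi were grouped by the diet in their labels. After adapter trimming and alignment to rn4 with BS Seeker, the authors merged both strands of each CpG and deposited for each sample the methylated fraction and the coverage, a count of reads, without normalization. The sources used here state neither duplicate removal nor whether positions count from 0 or 1. The product of fraction and coverage, taken as the methylated count, was within 0.01 of a whole number at every CpG. Methylation is methylated over total reads, in the window and flanks of CpGs that reached a coverage of 10 in all libraries, in the gap of all listed CpGs and in tiles of CpGs listed in all files. For coverage, an unlisted CpG counted as 0. The flanks were compared by exact permutation (scipy 1.17.1, two-sided). Tiles of 1000 nt, for methylation with at least 5 CpGs listed in all files and 50 reads in each library, for coverage with 5 CpGs and 50 reads on average, were fitted with edgeR 4.0.16 (R 4.3.3, common dispersion, TMM for coverage). limma 3.58.1 and DESeq2 1.42.0 were alternatives. Fits were also run on simulated data, with outcomes not reported here and not used as support. The window, CpG lists and tests were chosen with earlier results of these data known. The CpGs to be named were those of the window and the nearest 3 per side listed in all files. Added to these were the 3 largest increases and decreases meeting the criteria (only 2 decreases did). The tiles to be named were the 2 with the largest change per direction. Not all of these CpGs are named in the text, and other CpGs were named after their values were seen.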

Additional observations from a re-analysis of the deposited data

How the results depend on the processing

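The methylation difference of the window stayed at 86.4 percentage points with a minimum coverage of 5, was 86 with each CpG weighted equally, and lay between 83.4 and 89.7 with a replicate left out. With a minimum coverage of 15 or 20 no CpG of the window was left. The coverage ratio of the window was 5.83 with coverage as deposited, and between 4.74 and 6.33 with a replicate left out. The gap was 527 nt long under 3 other scalings and with folds of 1.5 and 3, but 856 nt where the groups were allowed to overlap. With a replicate left out it was between 527 and 856 nt, with the longest value without iron-sufficient replicate 1 and 563 nt without iron-sufficient replicate 2.

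The count of 9 of 152 flank CpGs meeting the criteria became 18 of 237, 7 of 98 and 4 of 49 with minimum coverages of 5, 15 and 20. It was 4 of 152 with unweighted means and variances. Leaving out a replicate gave between 5 and 15, with 15 of 215 without iron-sufficient replicate 2 and 5 of 160 without iron-deficient replicate 1. The flank differences kept their direction under all 12 alternatives each, but the replicate block among these cannot change a difference. For methylation, leaving out the CpGs of the gap cannot change it either, because none of them reached the minimum coverage. The methylation differences lay between 1.76 and 8.42 percentage points on the left and between 5.35 and 11.4 on the right. Those of log2 coverage lay between 0.1 and 0.33 on the left and between 0.17 and 0.41 on the right. No tile of the locus outside the window was called under any alternative of either fit. Over the genome the 7 tiles called for coverage became 4 without a filter, 2 and 12 with tiles of 500 and 2000 nt, 11 by DESeq2 on chromosome 4 alone, and between 1 and 17 with a replicate left out. The cause of these changes was not tested.

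With the replicate number as a block, the flank differences are the same (3.91 and 7.75 percentage points, 0.21 and 0.3 on the log2 scale), with p = 0.25 in each exact permutation test of pairs, the smallest that 3 pairs allow. The block called 0 tiles of the locus for methylation and 0 for coverage, and 1 tile for coverage in the genome. The labels give no shared litter. Same-numbered libraries correlated in their deviations over tiles by 0.00381, 0.0113 and -0.00459 for methylation and 0.00268, 0.00699 and 0.0186 for coverage, and not every library correlated best with its own number, so the numbers were not taken as pairs.

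Depth limits what is known of the gap, since 9 of its 24 CpGs are missing from at least 1 iron-sufficient file, and 2 have no iron-sufficient read, so iron-sufficient methylation there is not known. The minimum coverages of 1, 2 and 5 for the stretch around the window, the flank values without the gap and the rule on CpGs at 0% were chosen after seeing the data.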

Other observations

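CpGs at 0% in every iron-sufficient library and at 80% or more on average in iron-deficient libraries, all reaching a coverage of 10 in the 6 libraries, also lay beyond the 20 kb flanks. Leaving out the window, which was chosen by this difference, the megabase of chromosome 4 around it held 10 such CpGs, 4 in the flanks and 6 farther away, at distances of 26754 to 643317 nt from the window. The highest number in any other megabase was 8. The 6 beyond the flanks are fewer than that. For the reverse pattern this megabase held 0, and the highest number in any megabase was 16. With a minimum coverage of 5, this megabase held 14 CpGs of the first pattern outside the window, 7 of them beyond the flanks, and any other held at most 12, while the highest number for the reverse pattern was 25. The flank CpGs were counted by a rule set after its first cases had been seen, so these numbers are a description, with no test. The animals' own DNA sequence at the counted CpGs was not examined.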
